A study of Mus musculus with 12 samples.

Results

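The genes described here are the ubiquitin-conjugating (E2) enzyme genes of the mouse oocyte, taken as every gene in the count table whose symbol starts with Ube2. Of 56691 genes in the table, 43 had such a symbol. *Ube2c* and 5 pseudogenes were left out by the rule, which left 37 genes. Of these, 35 are E2 enzymes or E2 variants, and the others share only the name: *Ube2cbp* encodes an E3-type protein that binds E2s, and *Ube2uos* is an antisense RNA of *Ube2u*.

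The study asked how loss of ALKBH5, the enzyme that removes N6-methyladenosine from RNA, alters the transcripts of oocytes as they mature. RNA was sequenced from oocytes of wild-type (WT) mice and of *Alkbh5*-/- (KO) mice, which carry a whole-body CRISPR-Cas9 deletion of exon 1 with its start codon on a C57BL/6 background. Oocytes came from PMSG-primed females of 3 weeks of age and were taken at the germinal vesicle (GV) stage after 0 h of culture in M16 medium, after germinal vesicle breakdown (GVBD, 4 h) and at metaphase II (MII, 16 h). Each of the 6 groups had 2 libraries, giving 12 in all. The study calls the 2 samples of a group biological replicates, and states that oocytes pooled over several mice were allocated at random. No source says that the 2 libraries of a group came from separate animals, so the p-values measure the spread between these oocyte pools. Most KO oocytes are described as failing to pass GVBD and few as extruding a polar body, so the KO libraries labelled GVBD and MII may hold oocytes of an earlier stage; the study's methods do not say how oocytes were chosen for them.

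Libraries held 28557742 to 40247810 counts, of which 221927 to 838409 came from the ERCC spike-in RNAs added to each. Endogenous counts per spike-in count ranged from 47.0 to 127.7. *Alkbh5* itself had 5355 to 10181 counts in the WT libraries and 54 to 143 in the KO libraries. All 11 oocyte markers were above 0 in every library (18665 to 36575 summed CPM, counts scaled to the library total), against 29.5 to 76.8 summed CPM for 11 cumulus and granulosa markers, of which 1 to 4 were at 0. *Cyp19a1* (577 to 2225 counts) made up most of the latter sum in every library. The Ube2 genes together took 0.207% to 0.305% of the endogenous counts.

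Ubiquitin is activated by an E1 enzyme, handed to the active-site cysteine of an E2 enzyme, and then attached to a substrate with the help of an E3 ligase. The E2 largely sets which kind of ubiquitin chain is built, and a few E2s carry ubiquitin-like proteins such as NEDD8 and ISG15 in place of ubiquitin. In oocytes, protein degradation through this pathway drives the cell cycle transitions of meiosis. Because transcription is silent from the fully grown GV stage onward, transcript levels then change mainly through decay and through lengthening or shortening of the poly(A) tail, which is governed by short sequences near the 3′ end.

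Those 3′ ends are shown first, because most of the calls among the genes were between GV and MII. Sequences are from 1 GENCODE M21 transcript per gene (build GRCm38), on the sense strand, 30 bases each. The 3′ end used in these oocytes may be another. In the first set, the 5 genes that fell in WT MII oocytes under every alternative tried, and *Ube2t*, which did not pass the test, are shown up to their polyadenylation signal, with AATAAA in capitals.
Ube2v1, chr2:167607656-167607685, minus strand: tctgtcgtcgtccgagtctactatAATAAA
Ube2f, chr1:91290286-91290315, plus strand: caggtaaaacaccaatgcacgtgaAATAAA
Ube2q1, chr3:89783957-89783986, plus strand: aagttatttaaatagtttggctctAATAAA
Ube2j1, chr4:33052297-33052326, plus strand: tgctgctgttgtttattctactgaAATAAA
Ube2a, chrX:36884178-36884207, plus strand: aactgtacattttcaaaagttgtaAATAAA
Ube2t, chr1:134974117-134974146, plus strand: tttagaaaacttttaaacttgaaaAATAAA

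The second set holds 4 of the 5 Ube2 genes with TTTTAT, a form of the cytoplasmic polyadenylation element bound by CPEB1, in the last 100 bases of the transcript. The element is in capitals.
Ube2t, chr1:134974081-134974110, plus strand: aaggatagtttgTTTTATttatcttgtaca
Ube2g2, chr10:77645882-77645911, plus strand: aaaacaaagtatTTTTATtcatttgtattt
Ube2q2, chr9:55207427-55207456, plus strand: ttttttttttgaTTTTATttttcattgcag
Ube2w, chr1:16569793-16569822, minus strand: gtgattaatgtaTTTTATaaattacctttt

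TTTTAT was in the last 100 bases of 5 of 34 Ube2 transcripts (14.7%) and of 13.8% of 19846 protein-coding genes. AATAAA was there in 25 of 34 (73.5%), against 64.5% of all. GGACT, one form of the N6-methyladenosine motif, was in the 200 bases after the stop codon in 9 of 32 Ube2 transcripts (28.1%), against 22.5% of 17675 genes. The median 3′ UTR was 1448.5 bases long for the Ube2 genes and 937.0 for all. Only the sense strand was searched, these letters do not overlap each other, and a match is not a shown binding or methylation site.

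Levels differed widely among the Ube2 genes in WT GV oocytes. *Ube2t* (chromosome 1, 134962565 to 134974162, plus strand), the E2 of the Fanconi anaemia DNA repair pathway, had the highest level per kilobase of exon, 2989 ± 296 spike-in-scaled counts per kb (SD, n = 2), where counts of all libraries are first put on a common spike-in scale. Next came *Ube2n*, the E2 that builds non-degradative ubiquitin chains, with 2099 ± 305, its inactive partner *Ube2v1* with 1886 ± 169, and *Ube2w*, which places ubiquitin on protein N-termini, with 1861 ± 31.8. *Ube2k*, a chain-extending E2, had 1055 ± 107. *Ube2n*, *Ube2v1* and *Ube2w* did not differ from each other beyond their SDs.

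*Ube2t* stood at percentile 96.0 of 25163 genes by level per kb and *Ube2k* at 91.8, with *Ube2n* (94.9), *Ube2v1* (94.5) and *Ube2w* (94.5) between them. *Ube2t* was first in all 6 groups, also when length was taken from 1 transcript. The order below it depended on that choice: with 1 transcript *Ube2w* and *Ube2d3* came directly after *Ube2t*. For *Ube2d3* the exons of all transcripts cover 24499 bases and those of the chosen transcript 3833. At the low end, *Ube2d2b* had 0 to 4 counts, *Ube2dnl2* 0 to 6 and *Ube2ql1* 0 to 8 in any library. These 3 were removed by the low-count filter, and 34 of the 37 genes were tested in every comparison.

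**Figure D1:**
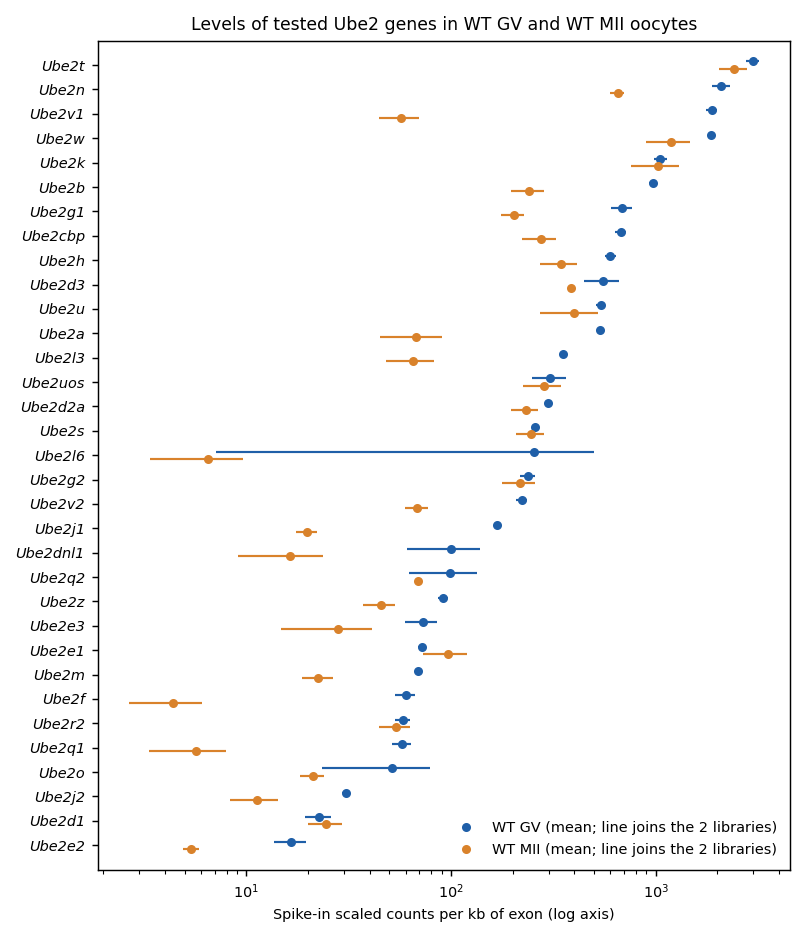
Spike-in-scaled counts per kilobase of exon (log axis) of 33 tested Ube2 genes in WT GV and WT MII oocytes, with the group mean as a point and a line that joins the 2 libraries. *Ube2t* has the highest level at both stages, while *Ube2v1* moves from rank 3 at GV (1886) to rank 21 at MII (57.1).

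The order of the genes changed between GV and MII in WT oocytes. *Ube2t* made up 15.1% to 17.5% of the summed level per kb of the Ube2 genes in the WT GV libraries and 24.5% and 25.9% in the WT MII libraries. *Ube2v1* made up 9.61% and 10.97% at GV and 0.61% and 0.57% at MII. *Ube2n* was at rank 5 at MII, with 652 ± 74.5 spike-in-scaled counts per kb.

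The comparison of MII with GV asks how the transcript pool is remodelled while the oocyte completes meiosis I. In WT oocytes 13 of 34 tested Ube2 genes (38.2%) fell and 0 rose, by edgeR's quasi-likelihood test with Benjamini-Hochberg adjustment over all genes tested (adjusted p below 0.05 and at least a 2-fold change). Over all 18816 genes tested, 30.5% fell and 0.393% rose. The median log2 fold change was −1.29 for the Ube2 genes and −1.06 for all genes. The other 21 Ube2 genes had log2 fold changes of −1.62 to 0.41. With scaling by TMM, which assumes that most genes do not change, the medians were −0.33 and −0.14. Under it 7 Ube2 genes fell and 1 rose (*Ube2e1*, log2 fold change 1.31, adjusted p = 0.0128), and 24.7% of all genes were called.

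All 3 genes of the E2 pair that builds non-degradative chains fell in WT oocytes. *Ube2v1* (chromosome 2, 167607638 to 167632095, minus strand) encodes an E2 variant without an active cysteine that positions ubiquitin for *Ube2n*. Its spike-in-scaled counts in the WT libraries were 4808 and 5457 (GV), 4719 and 2435 (GVBD) and 189 and 121 (MII), so the MII libraries lay far below all others. It fell 33.1-fold from GV to MII (log2 fold change −5.05 ± 0.57 SE, adjusted p = 1.2e-16, n = 2 per group). Of its exon bases, 69.1% also belong to other annotated genes, chiefly a readthrough model (Gm20431) that had 0 counts in every library, so reads assigned otherwise would not show in these counts.

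*Ube2n*, which shares 9.6% of its transcript's 100-base stretches with pseudogenes, had 9768 and 7951 spike-in-scaled counts in WT GV and 2973 and 2529 in WT MII. Its GVBD values, 8993 and 6204, overlapped those of GV. It fell 3.22-fold (log2 fold change −1.69 ± 0.48 SE, adjusted p = 0.00254). *Ube2v2*, the other partner of *Ube2n*, had 1481 and 1675 spike-in-scaled counts in WT GV and 551 and 424 in WT MII, and fell 3.24-fold (−1.69 ± 0.51, adjusted p = 0.00476). The calls of *Ube2n* and *Ube2v2* were not made under TMM or median-of-ratios scaling, or on leaving out WT GV replicate 1 or 2. That of *Ube2v1* was made in each of these settings.

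Of the genes for DNA damage and RAD6-type ubiquitination, *Ube2a* and *Ube2b* fell and *Ube2t* did not pass the test. *Ube2a* and *Ube2b* encode near-identical RAD6 homologues that ubiquitinate histone H2B and PCNA. In WT, *Ube2a* had 1211 and 1227 spike-in-scaled counts (GV), 2066 and 1075 (GVBD) and 206 and 102 (MII), so only its MII libraries were low. It fell 7.94-fold (log2 fold change −2.99 ± 0.55 SE, adjusted p = 8.72e-07). *Ube2b* fell 4.01-fold (−2.0 ± 0.51, adjusted p = 0.000631), from 2138 and 1976 to 609 and 417. *Ube2t*, with 13444 and 15469.8 in WT GV and 13534 and 9864 in WT MII, had overlapping groups and a log2 fold change of −0.31 ± 0.46 (adjusted p = 0.687).

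Of 4 E2s of ubiquitin-like proteins, 2 fell. *Ube2f* (chromosome 1, 91250304 to 91290337, plus strand), the NEDD8 E2 that acts on cullin 5, had WT spike-in-scaled counts of 591 and 469.6 (GV), 1218 and 542 (GVBD) and 53.4 and 23.6 (MII). It fell 13.9-fold (log2 fold change −3.79 ± 0.63 SE, adjusted p = 3.92e-08). The other NEDD8 E2, *Ube2m*, had a log2 fold change of −1.61 ± 0.71 (adjusted p = 0.0692).

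*Ube2l6* (chromosome 2, 84798828 to 84810335, plus strand), the interferon-inducible E2 of ISG15, differed sharply between libraries of 1 group. It had 14.2 and 999.8 spike-in-scaled counts in the WT GV libraries and 19.1 and 6.7 in WT MII, so WT GV replicate 1 lay within the MII range. Its fall (log2 fold change −5.32 ± 0.70 SE, adjusted p = 1.35e-12) became a log2 fold change of −0.15 (adjusted p = 0.997) without WT GV replicate 2.

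Among the E2s of endoplasmic reticulum-associated degradation, *Ube2j1*, a membrane-anchored enzyme, fell 8.52-fold in WT oocytes (log2 fold change −3.09 ± 0.60 SE, adjusted p = 2.86e-06). WT libraries held 594 and 596 spike-in-scaled counts of it (GV), 685 and 621 (GVBD) and 78.2 and 61.7 (MII). The log2 fold change was −1.44 ± 0.74 for *Ube2j2* (adjusted p = 0.13) and −0.13 ± 0.52 for *Ube2g2* (adjusted p = 0.9), which did not pass the test.

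Of 4 chain-extending E2s, *Ube2g1* fell 3.37-fold (log2 fold change −1.75 ± 0.50 SE, adjusted p = 0.00242), and *Ube2s*, *Ube2r2* and *Ube2k* had log2 fold changes of −0.07, −0.12 and −0.04. The call of *Ube2g1* was not made under TMM or median-of-ratios scaling, or on leaving out WT GV replicate 1 or 2. *Ube2s* extends chains started by the anaphase-promoting complex. Of the 8 chain-starting E2s that work with RING ligases, 7 were tested and 0 were called by edgeR. *Ube2d2a*, *Ube2d3* and *Ube2w* had log2 fold changes of −0.36, −0.51 and −0.65, *Ube2d1* and *Ube2e1* of 0.12 and 0.41, and *Ube2e2* and *Ube2e3* of −1.62 and −1.38 (adjusted p = 0.165 and 0.0627). In DESeq2, which called 29.5% of all genes, none of these 7 was called either.

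Among the remaining genes, 4 of 10 tested fell. *Ube2q1*, an E2 with a long N-terminal extension, fell 10.2-fold (log2 fold change −3.35 ± 0.66 SE, adjusted p = 4e-06), from 318 and 395 spike-in-scaled counts in WT GV to 49.5 and 20.7 in WT MII. *Ube2l3*, which serves HECT and RING-between-RING ligases, fell 5.42-fold (−2.44 ± 0.52, adjusted p = 3.08e-05). *Ube2dnl1*, a little-studied relative of the *Ube2d* genes, fell 6.14-fold (−2.62 ± 0.98, adjusted p = 0.0277), but its call was made in only 3 of 11 alternatives. *Ube2cbp* fell 2.45-fold (−1.29 ± 0.51, adjusted p = 0.0388). The call of *Ube2cbp* was not made under TMM or median-of-ratios scaling, or with all 12 libraries in one model. It was also not made on leaving out WT GV replicate 1, WT GV replicate 2 or WT MII replicate 2. *Ube2h*, whose product works with the CTLH ligase in destroying maternal proteins, had a log2 fold change of −0.81 ± 0.49 (adjusted p = 0.214).

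**Figure D2:**
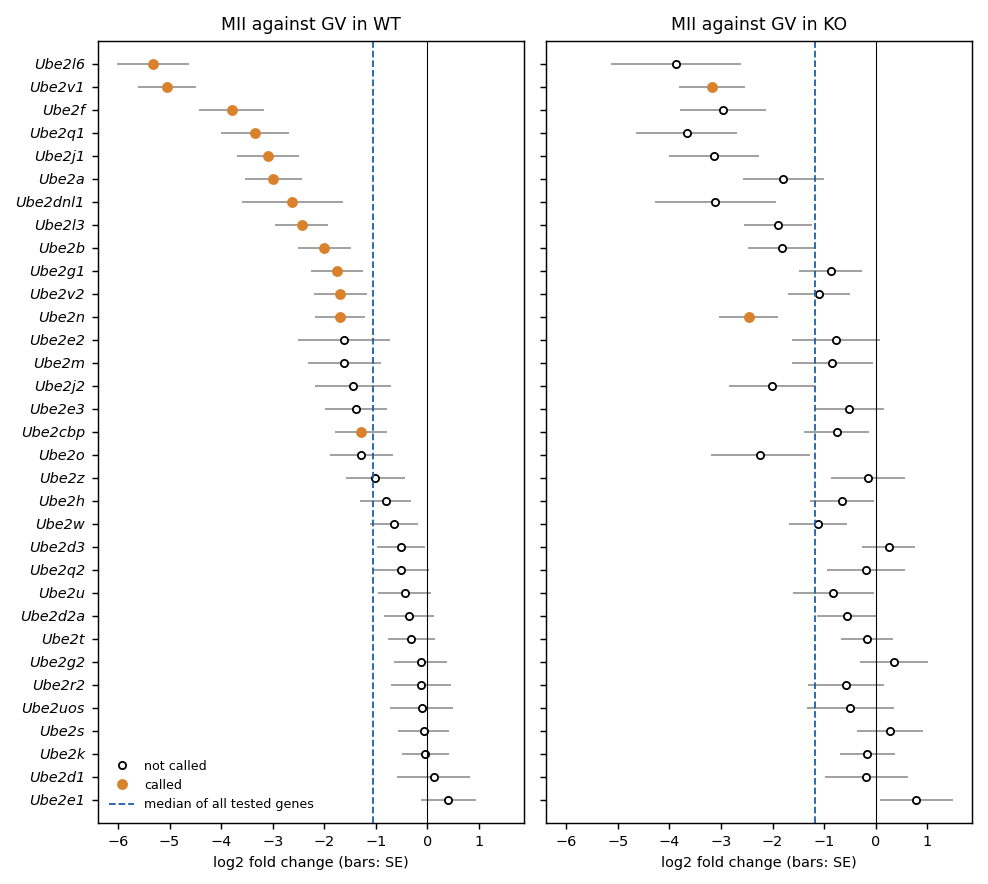
Log2 fold change of MII against GV with its SE for 33 tested Ube2 genes in WT (left) and KO (right) oocytes, with called genes in orange and a dashed line at the median of all genes. In WT 13 genes are called, led by *Ube2l6* (−5.32) and *Ube2v1* (−5.05), and in KO *Ube2v1* (−3.17) and *Ube2n* (−2.46) are. The WT value of *Ube2l6* rests on WT GV replicate 2 (999.8 spike-in-scaled counts, against 14.2 in replicate 1).

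The 5 genes whose fall in WT was called in all 11 alternatives were *Ube2v1* (log2 fold change −5.40 to −4.08 over the alternatives), *Ube2f*, *Ube2q1*, *Ube2j1* and *Ube2a*. Without WT GV replicate 1 or 2 the number of Ube2 genes called was 6, and the share of all genes called was 14.4% or 14.3%, against 30.9% with all libraries. Of the 11 cumulus and granulosa markers, 9 were tested and *Inha* and *Inhba* fell. *Inha* had WT counts of 46 and 123 at GV and 0 in both MII libraries. *Inhba* had a log2 fold change of −2.62 (adjusted p = 0.0133). The summed level of all 11 was 30.3 and 39.1 CPM in WT GV and 47.7 and 41.5 in WT MII. Most of each sum was *Cyp19a1*, with 788 and 577 counts in WT GV and 1365 and 1267 in WT MII. The part of these markers in the WT changes was not tested. Spike-in scaling sets the counts against a fixed amount of added RNA, so less RNA per oocyte and fewer oocytes in a pool cannot be told apart. Libraries were made from polyadenylated RNA, so loss of a transcript and shortening of its poly(A) tail cannot be told apart either.

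Set beside the sequences above, TTTTAT was in the last 100 bases of 0 of the 12 Ube2 transcripts with such a 3′ end that fell in WT MII oocytes and in 5 of 20 that were not called (25.0%). Over all genes it was in 366 of 3661 that fell and in 1644 of 9617 (17.1%) that were not called lower. Of those with it, *Ube2g2*, *Ube2q2*, *Ube2t* and *Ube2w* had log2 fold changes of −0.13, −0.51, −0.31 and −0.65. AATAAA was in 75.0% of the Ube2 transcripts that fell and 70.0% of the others. GGACT followed the stop codon in 5 of 12 (41.7%) and 3 of 18 (16.7%), against 25.6% and 21.6% over all genes. These shares rest on few genes, are given without a test, and follow the transcript chosen.

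In KO oocytes 2 of 34 tested Ube2 genes (5.88%) fell from GV to MII and 0 rose, against 3.28% lower and 0.00533% higher of 18777 genes. Both, *Ube2v1* and *Ube2n*, also fell in WT. In the KO libraries *Ube2v1* had 3887 and 3483 spike-in-scaled counts (GV), 2935 and 2913 (GVBD) and 459 and 357 (MII), a fall of 9.03-fold (log2 fold change −3.17 ± 0.64 SE, adjusted p = 0.0403). *Ube2n* had 16200.2 and 13006 in KO GV and 3219.6 and 2092 in KO MII, a fall of 5.50-fold (−2.46 ± 0.57, adjusted p = 0.048). The median of the Ube2 genes was −0.82 and that of all genes −1.17, and 22 Ube2 genes lay above the latter.

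The KO count depended on the libraries and on the scaling. It was 0 without KO GV replicate 1 or 2, 20 without KO MII replicate 1 and 9 without KO MII replicate 2. The share of all genes called moved with it, to 0.196% and 0.27% without the KO GV libraries and to 54.2% and 16.9% without the KO MII libraries. With TMM the median of the Ube2 genes changed sign to 0.27 (−0.14 for all genes). *Ube2s* (log2 fold change 1.35) and *Ube2g2* (1.44) were then called higher and *Ube2v1* lower, with 5.06% of all genes called. DESeq2 called 8 Ube2 genes lower in KO, where it called 16.4% of all genes, and these were also among the 13 of WT: *Ube2v1*, *Ube2n*, *Ube2f*, *Ube2j1*, *Ube2q1*, *Ube2l3*, *Ube2l6* and *Ube2b*.

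Whether the change from GV to MII differed with genotype was tested as an interaction. No Ube2 gene was called (edgeR, 0 of 34, against 0.0% of 20807 genes), 1 had an unadjusted p below 0.05, and DESeq2 called 0 (0.721% of all genes). That 1 gene was *Ube2v1*, whose fall was smaller in KO by 1.87 ± 0.64 SE on the log2 scale (edgeR adjusted p = 0.629). The difference was 1.59 to 2.23 over the alternatives, with adjusted p from 0.0746 to 1. The next highest interaction values were those of *Ube2l6* (1.43 ± 2.07) and *Ube2a* (1.19 ± 0.93). The lowest were those of *Ube2o* (−0.96 ± 1.22), *Ube2n* (−0.77 ± 0.60) and *Ube2j2* (−0.57 ± 0.95), all with adjusted p = 1.

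Between GV and GVBD few Ube2 genes moved. In WT 0 of 34 were called by edgeR, 0 had an unadjusted p below 0.05 and DESeq2 called 0. Over all 19566 genes edgeR called 0.0511% and DESeq2 1.91%. In KO *Ube2l6* alone fell (0.22% of 19064 genes were called), and DESeq2, which called 1.2% of all genes, called 3 Ube2 genes: *Ube2l6*, *Ube2o* (log2 fold change −2.19) and *Ube2f* (1.33). *Ube2l6* had 772 and 1283 spike-in-scaled counts in KO GV and 6.6 and 7.7 in KO GVBD, a fall of 139-fold (log2 fold change −7.12 ± 0.54 SE, adjusted p = 0.00168). The adjusted p was 0.0589 without KO GV replicate 2 and 0.926 with all 12 libraries in one model.

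**Figure D3:**
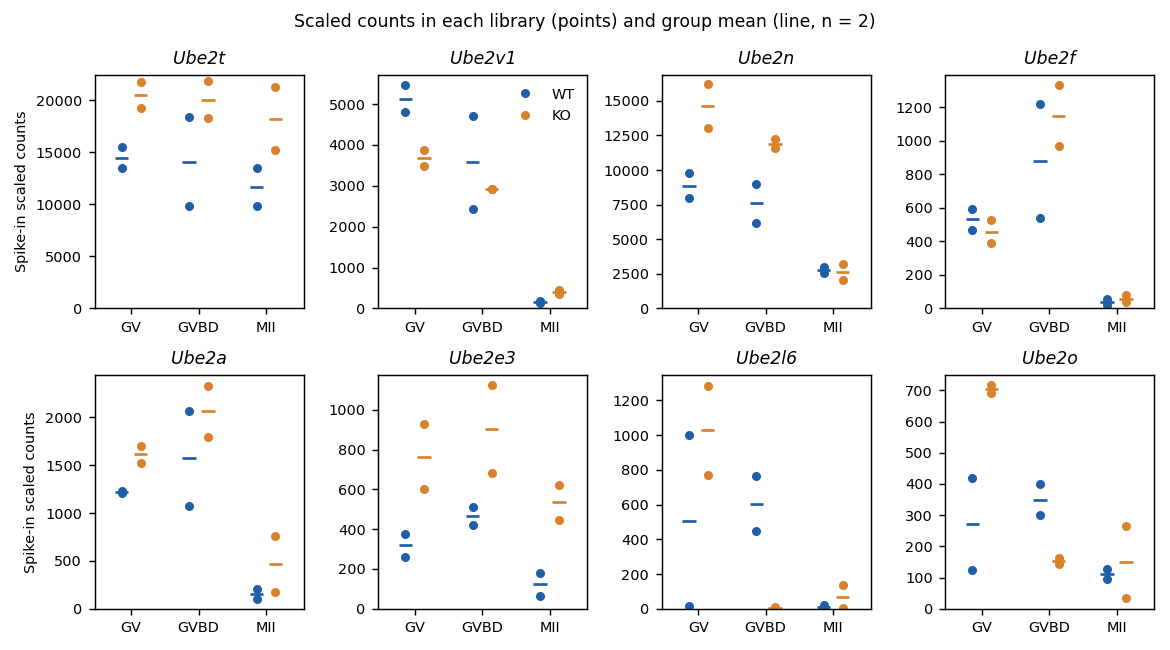
Spike-in-scaled counts of 8 Ube2 genes in each of the 12 libraries, by stage, with WT in blue, KO in orange and a line at each group mean. *Ube2v1* is low in all 4 MII libraries (121 to 459), *Ube2t* is at a like level at all stages, and *Ube2l6* and *Ube2o* vary between libraries of 1 group.

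The comparison of KO with WT at each stage asks which transcripts differ between the genotypes. Since the KO libraries labelled GVBD and MII may hold oocytes of an earlier stage, genotype and the stage reached cannot be told apart there. At GV 0 of 34 Ube2 genes were called by edgeR, 12 had an unadjusted p below 0.05, and DESeq2 called 2, *Ube2e3* and *Ube2j2*. Over all 19452 genes edgeR called 0.0977% and DESeq2 3.49%. The 2 KO libraries lay above both WT libraries for 24 Ube2 genes (70.6%, against 42.2% of all genes) and below them for *Ube2u* and *Ube2v1* (5.88%, against 9.69%). The median log2 fold change was 0.48 for the Ube2 genes and 0.36 for all, and 0.12 and 0.0 with TMM.

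The highest log2 fold changes at GV were those of *Ube2o*, a large enzyme that acts as both E2 and E3 (1.38 ± 0.57 SE, adjusted p = 0.28), *Ube2j2* (1.28 ± 0.37, adjusted p = 0.188) and *Ube2e3*, a RING-linked E2 (1.26 ± 0.35, adjusted p = 0.186). *Ube2o* had 123 and 419 spike-in-scaled counts in WT GV and 692 and 716 in KO GV. *Ube2e3* (chromosome 2, 78868124 to 78921293, plus strand) had 375 and 262 in WT GV and 928 and 602 in KO GV. At the other end stood *Ube2v1* (−0.48 ± 0.17, adjusted p = 0.238), *Ube2uos* (−0.24 ± 0.41, adjusted p = 0.807) and *Ube2f* (−0.22 ± 0.31, adjusted p = 0.769).

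Without WT GV replicate 2, *Ube2l6* was called higher in KO GV oocytes, with a log2 fold change of 6.16 (adjusted p = 0.000144). With all 4 libraries it was 1.02 ± 1.38 (adjusted p = 0.751).

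At GVBD *Ube2l6* was the 1 gene of 34 called (2.94%, against 2.54% of 19462 genes), and 3 had an unadjusted p below 0.05. DESeq2, which called 4.7% of all genes, called *Ube2l6* alone among the Ube2 genes. It had 767 and 445 spike-in-scaled counts in WT GVBD and 6.6 and 7.7 in KO GVBD, and was lower in KO by 82.5-fold (log2 fold change −6.37 ± 0.76 SE, adjusted p = 3.39e-05). In counts as deposited this was 572 and 503 against 4 and 7. The call was lost without WT GVBD replicate 1 (adjusted p = 0.134) or replicate 2 (0.0605) and with all 12 libraries in one model (0.237).

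At the other stages the *Ube2l6* libraries overlapped between genotypes, with 772 and 1283 spike-in-scaled counts in KO GV (14.2 and 999.8 in WT) and 136 and 4.3 in KO MII (19.1 and 6.7 in WT). The modifier that it carries, *Isg15*, was looked at after these values were seen. *Isg15* had 66 and 261 counts in WT GVBD and 0 and 6 in KO GVBD (log2 fold change −5.40 ± 1.01 SE, adjusted p = 0.00492), and 11 and 160 in WT GV, so its low libraries there were those of *Ube2l6*. *Uba7*, the E1 of ISG15, had 89 and 140 counts in WT GVBD and 87 and 91 in KO GVBD, which overlapped.

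The other high and low values at GVBD did not pass the test. *Ube2dnl1* (1.63 ± 0.64 SE, adjusted p = 0.206), *Ube2j2* (1.56 ± 0.59, adjusted p = 0.191) and *Ube2e2* (1.18 ± 0.66, adjusted p = 0.425) had the highest log2 fold changes. *Ube2o* (−1.18 ± 0.58, adjusted p = 0.347) and *Ube2r2*, a chain extender of cullin ligases (−0.64 ± 0.58, adjusted p = 0.667), had the lowest after *Ube2l6*. Libraries did not overlap for 10 Ube2 genes higher in KO (29.4%, against 30.3% of all genes) and for 3 lower, *Ube2l6*, *Ube2o* and *Ube2r2* (8.82%, against 17.9%). The median was 0.36 for the Ube2 genes and 0.23 for all genes, and 0.14 and −0.04 with TMM. The cumulus and granulosa markers summed to 60.5 and 42.1 CPM in KO GVBD and 29.5 and 38.6 in WT GVBD, with 1 to 3 of 11 at 0. Most of each sum was *Cyp19a1*, with 1420 and 1085 counts in KO GVBD and 786 and 931 in WT GVBD. *Fshr* alone among the markers was called, higher in KO (log2 fold change 3.38, adjusted p = 0.00897). The part of the markers in the GVBD values was not tested.

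In WT GVBD the 2 libraries differed in *Ube2d2a*, an abundant RING-linked E2, with 8680.3 and 546 spike-in-scaled counts, while KO GVBD had 6747 and 6822.

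At MII 0 of 34 Ube2 genes were called by edgeR, 2 had an unadjusted p below 0.05 and DESeq2 called 0. Over all 17566 genes edgeR called 0.803% and DESeq2 1.96%. The KO libraries lay above both WT libraries for 12 Ube2 genes (35.3%, against 22.1%) and below them for 0 (10.3% of all genes). The median was 0.70 for the Ube2 genes and 0.30 for all genes, and 0.39 and 0.0 with TMM. Among those whose mean count was 50 or more, the highest log2 fold changes were those of *Ube2e3* (2.13 ± 0.94 SE, adjusted p = 0.466), *Ube2z*, an E2 charged by UBA6 (1.65 ± 0.92, adjusted p = 0.785), and *Ube2a* (1.60 ± 0.93, adjusted p = 0.851). *Ube2uos* (−0.63 ± 0.99) and *Ube2u* (−0.54 ± 0.88) had the lowest, both with adjusted p = 1. Cumulus and granulosa markers summed highest in KO MII replicate 2 (76.8 CPM, against 41.5 to 49.8 in the other MII libraries). Most of that sum was *Cyp19a1*, with 2225 counts there and 1267 to 1365 in the others. In that library 4 of the 11 markers were at 0, against 2 or 3 in the others. The part of the markers in these values was not tested.

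**Figure D4:**
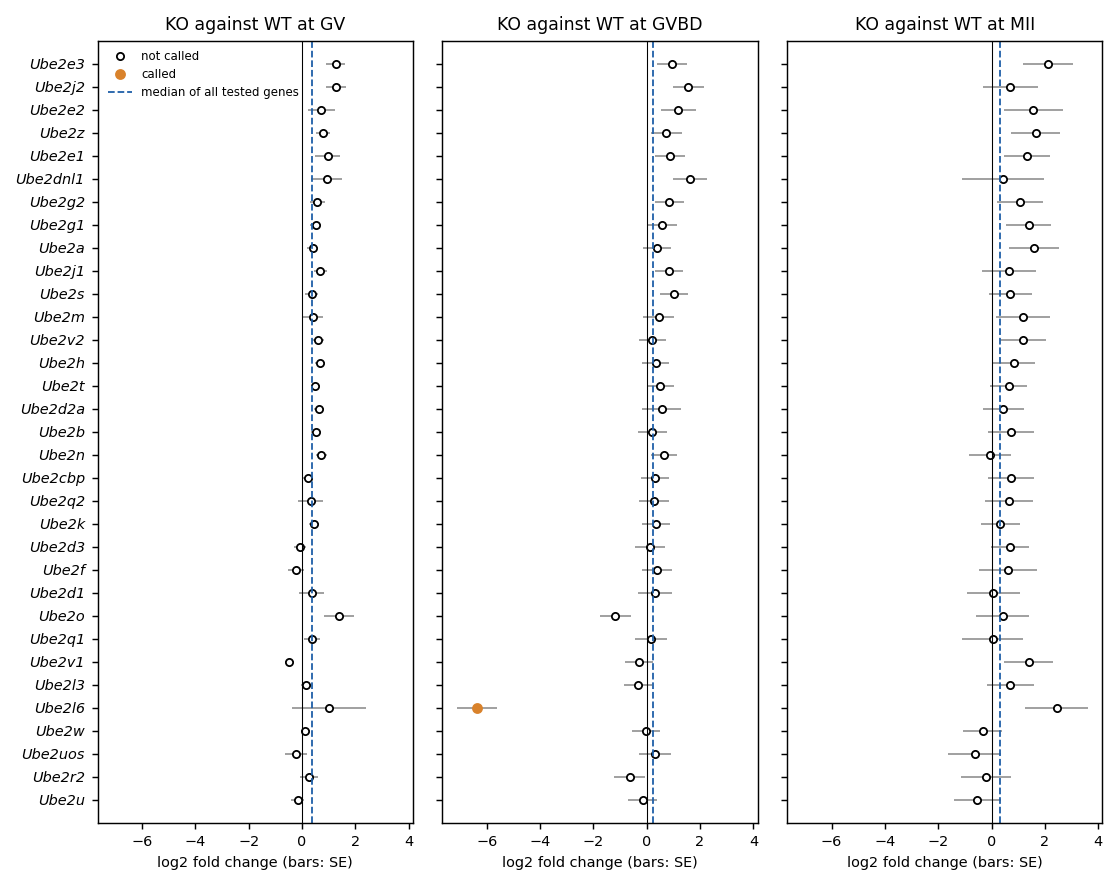
Log2 fold change of KO against WT with its SE for 33 tested Ube2 genes at GV, GVBD and MII, with called genes in orange and a dashed line at the median of all genes. *Ube2l6* at GVBD (−6.37) is the 1 called value, and *Ube2e3* lies at 1.26, 0.95 and 2.13.

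In all, 4 Ube2 genes had both KO libraries above both WT libraries at every one of the 3 stages, among 34 tested, against 6.73% of 16622 genes. They were the 3 *Ube2e* genes, which encode RING-linked E2s with an N-terminal extension, and *Ube2g2*, an E2 of endoplasmic reticulum-associated degradation. At MII *Ube2e3* had 181 and 64.6 spike-in-scaled counts in WT against 624 and 448 in KO, and at GVBD 512 and 419 against 1123 and 681. In the test over all stages its log2 fold change was 1.44 ± 0.33 SE (adjusted p = 0.0514).

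For *Ube2e1* the log2 fold change over all stages was 1.05 ± 0.31 (adjusted p = 0.101), for *Ube2e2* 1.16 ± 0.37 (adjusted p = 0.128) and for *Ube2g2* 0.83 ± 0.25 (adjusted p = 0.109). Over all stages 0 of 34 Ube2 genes were called by edgeR (1.26% of 22004 genes were), 14 had an unadjusted p below 0.05, and DESeq2, which called 6.18% of all genes, called 5: *Ube2e1*, *Ube2e2*, *Ube2e3*, *Ube2j2* and *Ube2z*. The median was 0.46 for the Ube2 genes and 0.29 for all genes, and 0.21 and 0.02 with TMM. The set of genes apart at every stage depended on scaling, since in CPM, chosen as an alternative after seeing the data, the genes higher in KO at every stage were *Ube2e3*, *Ube2g2*, *Ube2j2*, *Ube2t* and *Ube2z*, and *Ube2u* was lower. In CPM, 6.71% of all genes were higher and 4.35% lower in KO at every stage. Of the exon sequence of *Ube2e1*, 16.1% overlaps *Nkiras1* on the opposite strand, which had 2973 to 7070 counts. Of the 100-base stretches of its transcript, 47.4% also occur in *Nkiras1*, and it is not stated whether counting used strand.

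*Ube2t*, the most abundant of the genes, had 13444 and 15469.8 spike-in-scaled counts in WT GV and 21717 and 19247 in KO GV. At MII it had 13534 and 9864 in WT and 21239 and 15185 in KO. The groups did not overlap at these stages, but the log2 fold changes, 0.50 ± 0.17 SE (adjusted p = 0.216) and 0.64 ± 0.69 (adjusted p = 1), did not pass the test.

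The genes around the E2s in the pathway were read from lists of their own. Of 10 genes for ubiquitin and ubiquitin-like proteins, 7 fell from GV to MII in WT oocytes and 0 rose (30.5% of all genes fell), among them *Rps27a* (log2 fold change −6.37 ± 0.58 SE), *Ubb* (−3.18 ± 0.43) and *Nedd8* (−1.66). In KO oocytes, where 3.28% of all genes fell, 2 of the 10 did, *Rps27a* (−4.87 ± 0.69, adjusted p = 0.03) and *Ubb* (−2.51 ± 0.54, adjusted p = 0.0417). Of 9 E1 genes 3 fell in WT, *Uba7* (−3.38), *Atg7* (−2.36) and *Uba1* (−1.51), the main ubiquitin E1. Of 9 E2 or E2-like genes without a Ube2 symbol, *Ufc1*, the E2 of UFM1, fell (−3.92 ± 0.61, adjusted p = 2.35e-09). Of 11 genes of the CTLH ligase 3 fell, *Rmnd5b* (−4.15), *Gid4* (−2.60) and *Ranbp9* (−1.20). The counts for the E1 and CTLH genes are near the share of all genes that fell in WT. In KO edgeR made no call in these 3 lists, which does not show that the genotypes differ. Between KO and WT, *Isg15* at GVBD was the 1 gene of the 4 lists called at any stage.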

How the data were processed

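RNA was measured in 12 libraries of mouse oocytes, 2 for each genotype and stage. The authors deposited a table of counts per gene, not normalized, with 92 rows for the ERCC spike-ins. Per the labels, reads were handled with cutadapt 1.9, HISAT2 2.0.4 and StringTie 1.3.4d on GRCm38 (mm10). The annotation release and use of strand are not given in the sources used here, and GEO's protocol (bulk RNA, stranded) differs from the study's methods (low-input, with ERCC).

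Of the gene IDs, 52073 (91.9%) matched a symbol in GENCODE M21. Library sizes were set proportional to the summed spike-in counts, genes were filtered with filterByExpr, and edgeR 4.0.16 quasi-likelihood tests (R 4.3.3, two-sided) were fitted over all genes in 9 comparisons. A call needed an adjusted p below 0.05 and a log2 fold change of at least 1 in size. The SE is the log2 fold change divided by the root of F. Scripts were tested on simulated data.

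Named in full were every Ube2 gene called outside the MII against GV comparisons, up to 12 called within each of these, the 3 highest and 3 lowest (mean of at least 50 counts) in each genotype comparison at 1 stage and in the interaction, and the 5 with the highest level, except that 1 tested gene enters the counts but is not reported here. *Isg15* and *Uba7* beside *Ube2l6* were chosen after their values were seen. The members and lists were chosen with earlier results of these data known. Alternatives were TMM and median-of-ratios scaling, other count filters, DESeq2 1.42.0, all 12 libraries in one model, the replicate number as a block, and leaving out 1 library at a time. Libraries held 28557742 to 40247810 counts, and the 2 libraries per group limit the precision.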

Additional observations from a re-analysis of the deposited data

Results flagged for a closer look

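*Ube2o* is listed because its libraries separated in opposite directions at different stages. Both KO libraries were above both WT libraries at GV (log2 fold change 1.38), and both were below them at GVBD (−1.18). That difference between stages was not tested, and neither value passed the test at its own stage (adjusted p = 0.28 and 0.347). Over all genes, libraries separated with KO higher at GV in 42.2% and with KO lower at GVBD in 17.9%. The share of all genes with both is not given here. In counts as deposited, *Ube2o* at GV had 104 and 297 in WT against 380 and 561 in KO, and at GVBD 297 and 339 against 88 and 149.

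*Ube2v1* is listed for the same reason. Both KO libraries were below both WT libraries at GV (log2 fold change −0.48) and above them at MII (1.39). The test of the difference between these changes gave 1.87 ± 0.64 SE on the log2 scale, with an adjusted p of 0.629 by edgeR. Over all genes, libraries separated with KO lower at GV in 9.69% and with KO higher at MII in 22.1%. Here too the share of all genes with both is not given.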

How the results depend on the processing

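Of 450 alternative values for 38 single-gene results, 401 kept their direction and side of the threshold, 40 kept the direction and were no longer called, 3 became called and 6 changed sign. The sign changes came on leaving out 1 library. The log2 fold change then ranged from −0.49 without WT GV replicate 2 to 0.06 without WT GV replicate 1 for *Ube2uos* at GV, and from −1.84 without KO MII replicate 1 to 0.13 without KO MII replicate 2 for *Ube2u* at MII (0.01 without WT MII replicate 1). In the interaction it ranged from −0.21 to 1.89 for *Ube2a*, without KO MII replicate 1 and 2, and from −3.72 to 2.41 for *Ube2l6*, without WT GV replicate 2 and KO MII replicate 2 (−2.54 without KO MII replicate 1). The number of Ube2 genes called moved by over 1.5 times as follows. In MII against GV in WT (13) it was 8 with TMM and 8 with median-of-ratios scaling. Of all genes, 24.7% and 25.4% were called there, against 30.9% in the main fit. In MII against GV in KO (2) it was 6 with no count filter and 6 with at least 10 counts in every library. It was 8 with DESeq2 and 9 with all 12 libraries in one model. The share of all genes called moved with it, from 3.28% to 9.32%, 17.5%, 16.4% and 17.1% in that order. In KO against WT at GV (0) it was 2 with DESeq2, which called 3.49% of all genes, against 0.0977% in the main fit. At GVBD (1) it was 0 with the 10-count filter, which removed *Ube2l6*, and 0 with all 12 libraries in one model. Of all genes, 3.44% and 0.0668% were called there, against 2.54% in the main fit. In GVBD against GV in KO (1) it was 3 with no filter, 3 with DESeq2 and 0 with all 12 libraries. Of all genes, 1.77%, 1.2% and 0.00525% were called there, against 0.22% in the main fit. Over all stages (0) it was 1 with TMM, 1 with median-of-ratios scaling, 1 with no filter, 3 with the 10-count filter and 5 with DESeq2. In that order 2.73%, 2.77%, 3.57%, 6.41% and 6.18% of all genes were called, against 1.26% in the main fit. Leaving out 1 library gave 0 to 2 at GV, 0 to 1 at GVBD, 0 to 1 at MII, 6 to 14 for MII against GV in WT and 0 to 20 in KO, 0 to 1 for GVBD against GV in WT and 0 to 3 in KO, 0 to 0 for the interaction and 0 to 2 over all stages. A lone library was then assumed to vary like the other group. The cause was not tested.

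Replicate numbers were shared across groups, but same-numbered libraries did not deviate together (r over 13273 genes −0.22 at GV, 0.14 at GVBD and −0.18 at MII), so the numbers were not taken as pairs. With the replicate number as a block, the count was 6 for MII against GV in KO, 12 in WT and 3 over all stages. Of all genes, 13.1%, 26.4% and 3.06% were called there. With the crossed pairing, added after seeing the data, 0 Ube2 genes were called at GV and 0 at MII, against 1.12% and 0.0% of all genes.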
